A study of Mus musculus with 111 samples.

Results

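Rny1 and Rpph1 are 2 of the 1268 entries in a read-count table of mouse small RNA, and they were taken as the rows of those names. Rny1 is a Y RNA and Rpph1 is the RNA subunit of ribonuclease P. The table covers 6 kinds of mouse sample: liver, heart, testis, the caput and cauda segments of the epididymis, and sperm taken from the cauda. Libraries were made by OTTR-seq, whose reverse transcriptase adds both adapters during cDNA synthesis. Each mouse ate 1 of 4 diets over 6 months, namely a control diet (C, 18% protein), a low-protein diet (LP, 10% protein, the missing mass replaced by sucrose), a high-fat control diet (labelled C_HF, 7.2% of calories from fat) or a high-fat diet (HF, 60% of calories from fat). The libraries form 24 groups of 4 or 5, with 17 liver, 19 heart, 19 testis, 19 caput, 18 cauda and 19 sperm libraries. All groups share the diet period and free access to food. Strain, genotype, age and sex are not stated in the labels, and the control diet and the high-fat control diet are different purified feeds. Nothing in the labels ties each library to an animal of its own, so p-values measure only the spread between libraries, which may be technical.

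Y RNAs are short RNAs made by RNA polymerase III. They fold with their ends paired into a stem that binds the protein Ro60, while the run of U at the 3′ end binds the La protein, and shortened Y RNAs are abundant in body fluids and vesicles. Ribonuclease P is the enzyme that removes the leader from the 5′ end of precursor tRNAs, and Rpph1 is its catalytic RNA. Rny3 is the other Y RNA of the table, and Rmrp is the RNA of RNase MRP, an enzyme related to RNase P that acts on precursor ribosomal RNA.

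The sequences of both Y RNAs are shown because the ratio between them is one of the results, and capitals mark the 3 runs of at least 8 bases that Rny1 and Rny3 share. They are the GENCODE M21 transcripts (GRCm38), 5′ to 3′.
Rny1: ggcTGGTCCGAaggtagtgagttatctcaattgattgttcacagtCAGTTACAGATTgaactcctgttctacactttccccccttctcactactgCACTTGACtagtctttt
Rny3: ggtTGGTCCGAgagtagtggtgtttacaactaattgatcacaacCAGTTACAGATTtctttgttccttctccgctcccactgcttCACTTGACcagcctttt

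Rny1 (ENSMUSG00000065701.1) has 112 bases at chr6:47788069-47788180 on the minus strand. Rny3 has 102 bases at chr6:47781624-47781725 on the plus strand. In a global alignment the pair was identical in 81 of 112 columns (72.3%), and the longest shared run was 12 bases. The shared runs lie near each end and in the middle. Another 10 annotated genes have a transcript at least 85% identical to Rny1 over at least 60 bases, the closest at 92.7%, and none of them is an entry of the table. Reads of such copies would be listed under Rny1 or left out, depending on a counting rule that the labels do not state.

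Rpph1 (ENSMUSG00000092837.1, annotated as a ribozyme) has 319 bases at chr14:50807449-50807767 on the minus strand. Only its ends are shown, because its bases 36 to 268 (233 bases) also lie in an annotated 5′ UTR of Ccnb1ip1 on the same strand. Capitals mark the 5 terminal bases of each end that are complementary to the other end.
Rpph1 bases 1 to 35: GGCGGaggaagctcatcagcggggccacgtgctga
Rpph1 bases 269 to 319: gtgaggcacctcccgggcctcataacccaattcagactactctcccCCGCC

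Reads from the shared bases cannot be told apart between Rpph1 and Ccnb1ip1. Among table entries, Rprl2 and Rprl3 have transcripts at least 85% identical to Rpph1 over at least 60 bases and hold 359 reads in all. Parp2 starts 73 bases upstream of Rpph1 on the opposite strand. The table gives no read positions or lengths, so whole RNAs and fragments of them cannot be told apart. The column names end in gt65, a code that the labels do not explain, and whether reads were selected by length is not known here.

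Some reads of the table stand under several names. After entries listing the same reads were merged, 1042 features remained, with 827 to 1467880 reads per library (median 59904). Levels are given in RPM, the reads of an RNA scaled to 1000000 of these reads in each library. Over all libraries Rny1 had 5328 reads and Rpph1 had 1138 reads, so few reads lie behind most single values. The 3 libraries under 5000 reads were liver HF replicate 3 and caput LP replicates 2 and 3. Entries for piRNA precursors, which mark testis, held 0.417% to 15.4% of the reads of each testis library and at most 0.128% in liver. They held 0.0786% to 0.856% in cauda (median 0.377%), 0.227% to 1.62% in sperm (median 0.567%) and at most 0.0741% in caput (median 0.0227%). The ranges of cauda and sperm overlapped each other and that of testis. No other defining marker of a tissue was measured.

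Rny1 had its highest median in cauda epididymis, and Rpph1 had its highest medians in cauda and sperm. In cauda, Rny1 ranged from 234 to 3707 RPM with a median of 1092 (1400 ± 966, SD, n = 18). In sperm it ranged from 163 to 1714 RPM with a median of 533 (717 ± 439, SD, n = 19). In caput it had 0 reads in 2 of 19 libraries, a median of 448 RPM and a maximum of 987 (502 ± 284, SD). These 3 distributions overlapped, and each mean lay above those of the other tissues. Testis libraries held 40.7 to 657 RPM of Rny1 (median 185, 222 ± 163, SD, n = 19). Liver libraries held 0 to 533 RPM (median 203, 187 ± 149, SD, n = 17), and heart libraries 0 to 347 RPM (median 87.3, 93.8 ± 80.0, SD, n = 19). Every one of the 18 cauda and 19 sperm libraries had Rny1 reads, as did all 19 testis libraries.

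Rpph1 separated the tissues more sharply. In cauda it ranged from 9.55 to 1070 RPM with a median of 368 (409 ± 273, SD, n = 18). In sperm it ranged from 0 to 947 RPM with a median of 380 (446 ± 222, SD, n = 19), and 1 sperm library had no read of it. Testis libraries held 0 to 259 RPM (median 40.2, 55.6 ± 61.4, SD, n = 19). Liver and heart were lower again: the medians were 3.65 and 1.32 RPM, the means 10.95 ± 19.4 (SD, n = 17) and 5.10 ± 7.50 (SD, n = 19), and Rpph1 was read in 9 of 17 and 12 of 19 libraries. In caput only 3 of 19 libraries had any Rpph1 read.

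**Figure D1:**
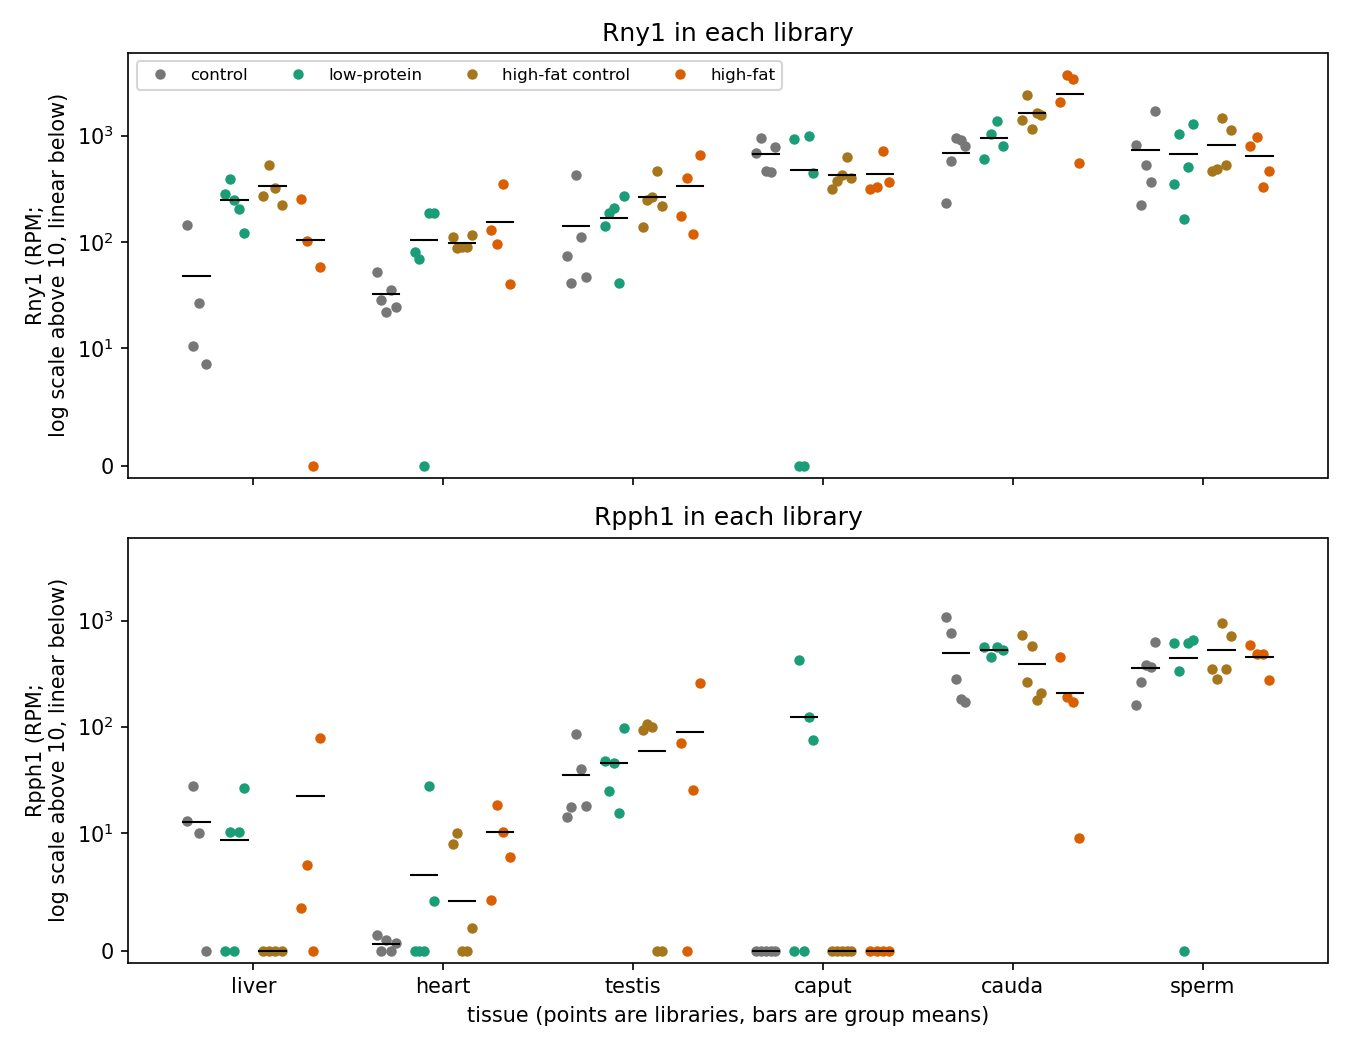
Rny1 (top) and Rpph1 (bottom) in RPM, on an axis that is logarithmic above 10 and linear below, for each library of the 6 tissues and 4 diets; points are libraries, colours are diets and bars are group means. Rny1 is present in nearly all libraries and highest in cauda, whereas Rpph1 is high in cauda and sperm and at 0 in 16 of 19 caput libraries.

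The caput and cauda are neighbouring segments of the epididymis, the duct in which sperm mature. Over all 19 caput libraries there were 4 Rpph1 reads among 690674 reads, where 179 would have been found at the pooled cauda rate. The pooled Rpph1 rate was 44.7-fold higher in cauda than in caput (exact 95% interval 17.4 to 165). The cauda pool includes HF replicate 4, which held 628483 of its 2070938 reads but 6 of its 536 Rpph1 reads. The 4 caput reads came from 3 LP libraries, which are shallow (38310 reads over the 5 LP libraries). The caput groups on the C, C_HF and HF diets had 0 reads each, which allows up to 10.7, 11.1 and 29.5 RPM, with a floor of 3 reads over the group. Such limits cover counting error only. In bulk tissue, fewer cells of a type and less RNA per cell cannot be told apart.

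Tissue differences were tested with edgeR's quasi-likelihood test over 294 features, with TMM scaling (which assumes that most features do not differ) and diet as a covariate. Calls between tissues needed an adjusted p under 0.05 and a change of at least 1 on the log2 scale in either direction. From caput to cauda, both RNAs were higher over all diets, in a comparison in which 40.8% of features were called higher. Rny1 was 2.34-fold higher (log2 1.23 ± 0.37, SE, edgeR adjusted p = 0.0020). By diet, Rny1 in caput and cauda held 458 to 947 and 234 to 941 RPM on control, and 0 to 987 and 607 to 1384 on LP. The ranges were 313 to 626 and 1150 to 2420 RPM on C_HF, and 313 to 714 and 552 to 3707 on HF. They overlapped on every diet but C_HF, and the difference was not tested within diets. Rpph1 was higher by 6.04 ± 0.70 (SE) on the log2 scale (edgeR adjusted p = 1.6e-13), a fitted value that rests on the 4 caput reads. Sperm was likewise higher than caput for Rpph1 (log2 5.99, with 47.6% of features called higher), while the Rny1 difference was not called with TMM (0.57, edgeR adjusted p = 0.138) and was called with RLE scaling (1.54, edgeR adjusted p = 0.00043). The Rny1 call of cauda over caput was lost when all table entries were kept (log2 0.81), because that value is under the minimum change. In the column names, cauda libraries carry numbers 10 to 28, sperm 29 to 47 and testis 48 to 66. Caput libraries carry 11 to 29 and liver libraries 1 to 4 and 44 to 56. Heart C and LP libraries carry 5 to 9 and 35 to 39, so some numbers recur between tissues. The labels do not explain the numbers. If they come from separate series, a difference such as that of caput and cauda cannot be told apart from the series. Their part in the values was not tested.

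Between cauda and sperm neither RNA was called, where 42.9% of features were. Rny1 differed by -0.66 ± 0.35 (SE; edgeR adjusted p = 0.105) and Rpph1 by -0.05 ± 0.37 (SE; edgeR adjusted p = 0.920) on the log2 scale. The direction of both depended on the scaling: with RLE factors (DESeq2's method) the differences were 0.41 and 0.96. RLE scaling moved the median of all features in this comparison from 0.08 to 0.94.

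Against testis, Rny1 was called higher in caput (log2 1.97, where 11.6% of features were called higher), in cauda (3.19, with 25.5%) and in sperm (2.53, with 29.3%). Rpph1 was called higher in cauda (3.87) and sperm (3.82), but lower in caput (log2 -2.17 ± 0.78, SE, edgeR adjusted p = 0.0099), where 52.7% of features were called lower. DESeq2 did not call the lower Rpph1 of caput (log2 -0.85). Over all diets, the members therefore moved in opposite directions between testis and caput, and both rose from caput to cauda.

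Liver and heart had less of both RNAs than cauda and sperm. Against liver, cauda was higher by 2.29 for Rny1 and 4.53 for Rpph1 on the log2 scale (37.1% of features called higher). Against heart the same differences were 1.85 and 4.82 (37.8% called higher). Sperm was higher than liver by 1.63 and 4.48 (43.2% called higher) and higher than heart by 1.19 and 4.77 (46.9% called higher). Of these 8 differences, all called, only Rny1 in sperm against heart fell below the threshold in an alternative, with log2 0.60 at a minimum of 10 reads, 0.72 with DESeq2 and 0.74 with all entries kept.

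The order of testis, heart and liver for Rny1 was not settled by these libraries. TMM scaling placed Rny1 in testis 1.34 below heart on the log2 scale, a called difference (15.0% of features called lower), RLE scaling placed it 0.13 above, and total counts placed it 1.28 above. The median of all features moved with it, from 1.12 to 2.56 and 3.72. With TMM scaling, no difference of Rpph1 among testis, heart and liver was called (log2 0.95 for testis minus heart, 0.66 for testis minus liver and -0.29 for heart minus liver). Other scalings called Rpph1 higher in testis than in heart (2.47 with RLE, edgeR adjusted p = 3.8e-05, and 3.45 with total counts, edgeR adjusted p = 5.8e-11) and higher in testis than in liver (1.56, edgeR adjusted p = 0.0193, and 2.05, edgeR adjusted p = 0.00029). Total counts also called it lower in heart than in liver (-1.40, edgeR adjusted p = 0.0168). With TMM scaling of all libraries, Rny1 was not called between heart and liver (0.44) or between testis and liver (-0.91, edgeR adjusted p = 0.0335, under the minimum change). In the C and C_HF libraries alone, heart was called higher than liver (1.15, edgeR adjusted p = 0.0498). Testis was called lower than liver with DESeq2 (-1.59, DESeq2 adjusted p = 3.3e-06) and with all entries kept (-1.01, edgeR adjusted p = 0.0065). In all, 57.5% of features were called for testis minus liver and 33.3% for heart minus liver. Caput was called higher than liver for Rny1 (1.06, where 4.42% of features were called higher), but not at a minimum of 10 reads (0.80). With TMM scaling of all libraries, caput and heart differed by call for neither RNA (0.62 for Rny1, with 22.4% of features called higher, and -1.22 for Rpph1, with 26.5% called lower). In the C and C_HF libraries alone both were called: 1.05 for Rny1 (edgeR adjusted p = 0.0215) and -3.29 for Rpph1 (edgeR adjusted p = 0.0443). Caput held 0 Rpph1 reads on each of these diets. For Rny1 the difference was called with RLE (1.51, edgeR adjusted p = 0.0013) and with total counts (2.71, edgeR adjusted p = 3.1e-11).

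**Figure D2:**
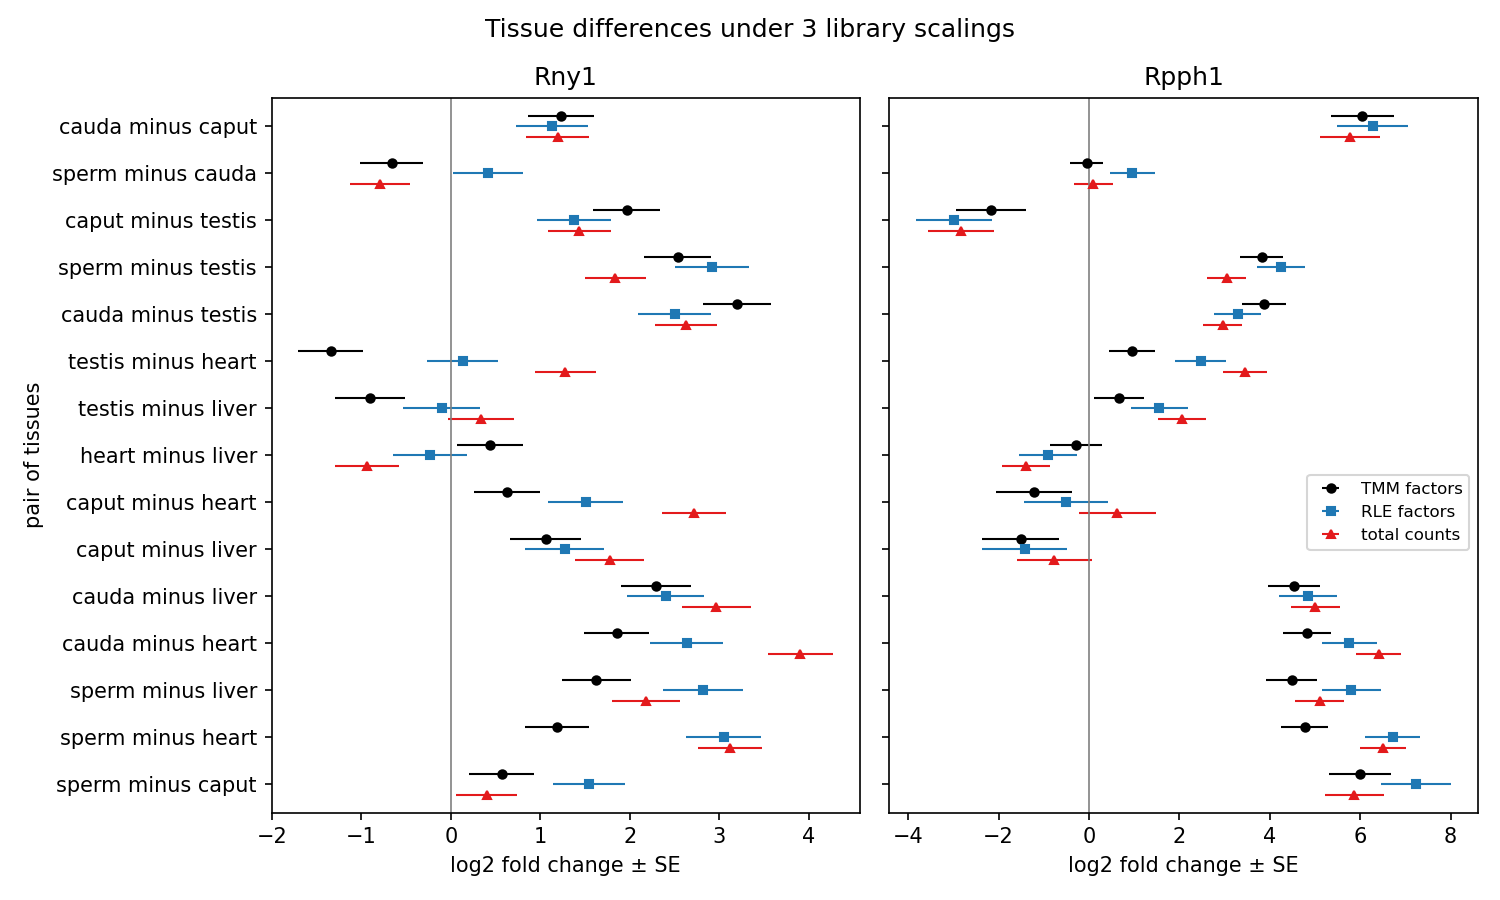
Log2 fold change with SE of Rny1 (left) and Rpph1 (right) for the 15 pairs of tissues, with libraries scaled by TMM factors (black circles), RLE factors (blue squares) or total counts (red triangles). Differences of cauda and sperm against liver, heart and testis keep their sign in all 3 scalings, while the Rny1 difference of testis minus heart runs from -1.34 to 1.28.

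Per 100 bases of gene length, Rny1 exceeded Rpph1 in every tissue mean. The RPM per 100 bases were 1250 and 128 in cauda, 640 and 140 in sperm, and 449 and 10.3 in caput, for Rny1 and Rpph1 in that order. In testis they were 198 and 17.4, in liver 167 and 3.43, and in heart 83.7 and 1.60. The caput value of Rpph1 rests on 4 reads from shallow LP libraries. In LP replicate 2, which held 2353 reads, 1 read counts as 425 RPM. Pooled over libraries, Rpph1 was lower in caput than in liver (5.79 against 10.5 RPM) and higher than in heart. The order of caput and liver for Rpph1 is therefore not settled by these means.

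The ratio of Rpph1 to Rny1 within a library does not depend on how libraries are scaled to each other. Pooled over libraries, there were 65.3 Rpph1 reads per 100 Rny1 reads in sperm, 29.02 in testis, 19.5 in cauda, 9.14 in liver, 4.61 in heart and 1.11 in caput. Tests used the mean log2 ratio with 0.5 reads added to each count, which left out 3 libraries with no read of either RNA. Over all diets, sperm had the highest mean ratio of the 6 tissues, with -0.65 ± 0.84 (SD, n = 19). Cauda had -1.90 ± 1.88 (SD, n = 18), a difference of 1.25 from sperm (permutation p = 0.0123, adjusted over 15 tissue pairs 0.0205). The means did not show this difference on every diet: cauda and sperm had -0.71 and -0.79 on control and -0.78 and -0.77 on LP. They had -2.22 and -0.60 on C_HF and -4.11 and -0.40 on HF. On control the cauda values spread widely (SD 1.93, from -2.28 to 2.15), and the medians were -1.72 in cauda and -0.47 in sperm. On LP the medians were -0.87 and -0.95. The difference was not tested within diets. The other 4 differences from sperm were 1.27 for testis, 2.42 for liver, 3.57 for heart and 3.81 for caput, with permutation p-values adjusted to between 1.0e-04 and 3.0e-04. Cauda and testis differed by 0.02, and cauda exceeded caput by 2.56 (permutation p adjusted to 0.0011). In caput and heart most libraries had 0 or few Rpph1 reads, so their log2 ratios depend on the number of Rny1 reads and on the added 0.5.

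**Figure D3:**
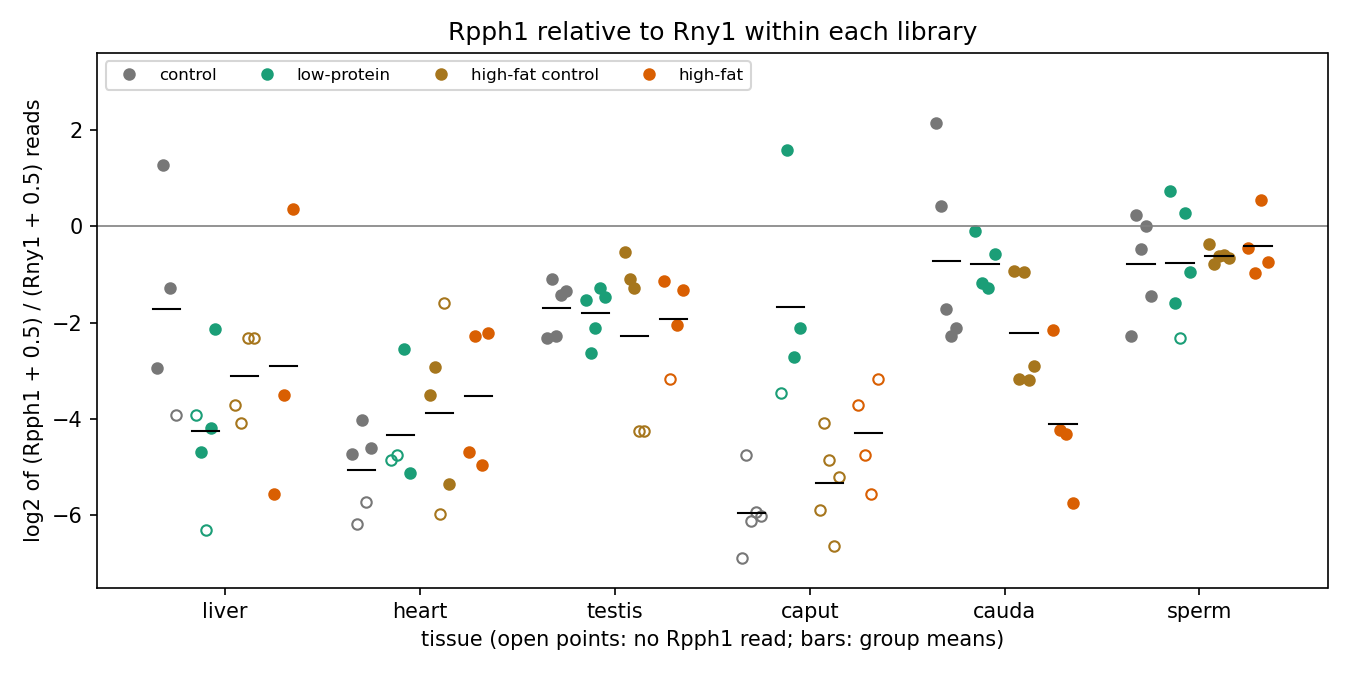
Log2 ratio of Rpph1 to Rny1 reads, with 0.5 added to both, for each library by tissue and diet; open points had no Rpph1 read and bars are group means. Sperm libraries cluster near -0.65, and the 4 HF cauda libraries lie between -5.74 and -2.16.

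Each RNA was also set against its nearest relative in the table, a comparison chosen after the tissue values were seen. Over all diets, Rny3 did not follow Rny1 through the epididymis. There were 64.5 Rny3 reads per 100 Rny1 reads in testis, 59.4 in liver, 51.8 in caput, 39.98 in heart, 20.4 in cauda and 11.4 in sperm. The log2 ratio of Rny3 to Rny1 was -0.68 ± 1.29 (SD, n = 18) in caput, -2.17 ± 0.71 (SD, n = 18) in cauda and -3.09 ± 0.58 (SD, n = 19) in sperm. Cauda differed from caput by -1.496 (permutation p adjusted over 15 tissue pairs 6.0e-05, from the smallest p the permutations can give) and sperm lay 0.92 below cauda (permutation p adjusted to 3.0e-04). Sperm lay below each of the 5 other tissues and cauda below each of the 4 tissues other than sperm, all at adjusted permutation p-values of at most 0.0088. These calls held with 1 read added in place of 0.5 and in libraries with at least 5 reads of both. Sperm held only 71 Rny3 reads over its 19 libraries. The last check therefore keeps few sperm libraries, those with the most Rny3 reads. In the others the log2 ratio depends on the added 0.5. On the control diet alone, the ratio did not fall from caput to cauda. Control caput libraries held 6, 3, 9, 6 and 13 Rny3 reads beside 59, 13, 34, 30 and 32 Rny1 reads. Control cauda libraries held 3, 6, 38, 33 and 4 beside 14, 23, 77, 70 and 19. Pooled reads gave a fall on LP, C_HF and HF. Differences between tissues in this ratio were not tested within diets.

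Among the tissues with at least 100 Rpph1 reads, Rpph1 was most frequent relative to Rmrp in cauda. Pooled, there were 51.2 Rpph1 reads per 100 Rmrp reads in cauda, 27.7 in sperm and 10.5 in testis. The log2 ratio was -0.98 ± 0.76 (SD, n = 18) in cauda, -1.79 ± 0.60 (SD, n = 18) in sperm and -3.50 ± 1.12 (SD, n = 19) in testis. Each of the 3 differences passed a permutation test adjusted over the 3 pairs (2.52 for cauda minus testis and 1.71 for sperm minus testis, each with p = 3.0e-05, and -0.81 for sperm minus cauda, with p = 0.0012).

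**Figure D4:**
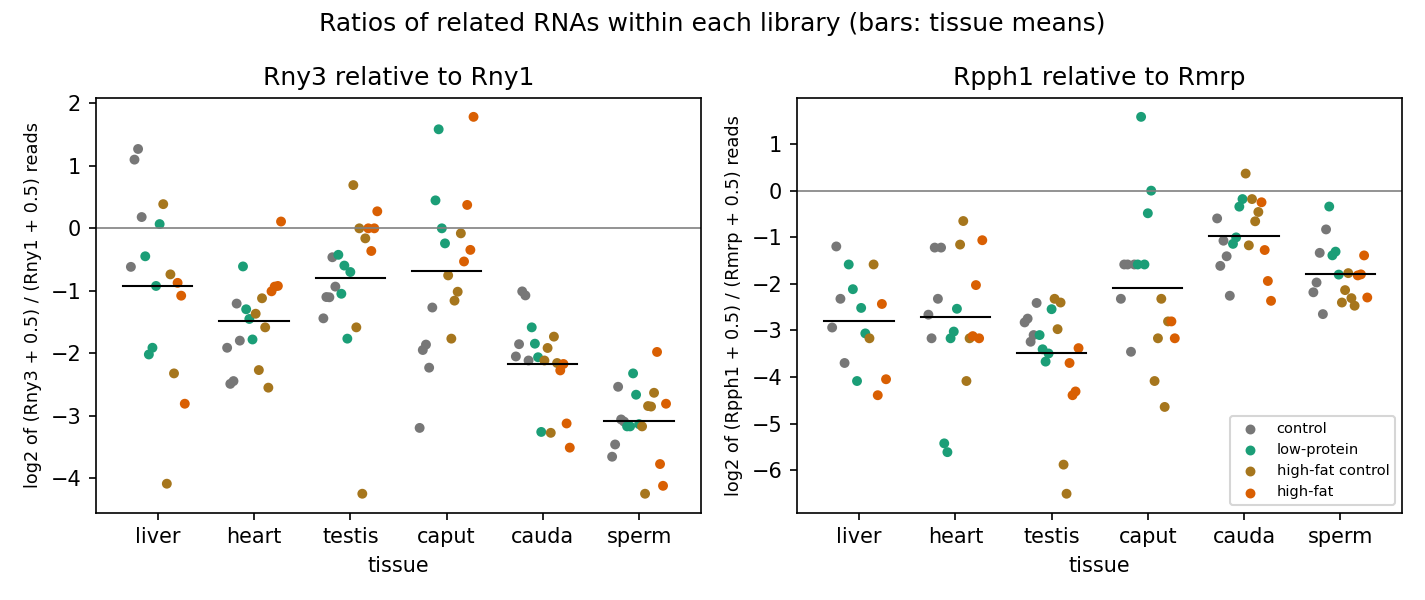
Log2 ratio, with 0.5 reads added to both counts, of Rny3 to Rny1 (left) and of Rpph1 to Rmrp (right) in each library by tissue; colours are diets and bars are tissue means. Over all diets, the left panel falls from -0.68 in caput to -2.17 in cauda and -3.09 in sperm, and the right panel is highest in cauda at -0.98.

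Other RNAs made by RNA polymerase III were read beside the members. From caput to cauda, Rmrp (log2 3.86), Rn7sk, which holds a transcription elongation factor inactive (2.76), the signal recognition particle RNA Rn7s1 (3.93), the 5S ribosomal RNA entries under Gm25018 (2.40) and the vault RNA Vaultrc5 (1.67) were called higher. Rny3 (0.01, of either sign with other scalings) and the selenocysteine tRNA (0.28) were not called. Of the 6 tested RNAs with gene-external polymerase III promoters, members included, 4 were called higher and none lower, where 40.8% of all features were called higher, with a median log2 difference of 1.996 against 0.80 for all 294 features. From cauda to sperm the selenocysteine tRNA (3.36), Gm25018 (1.90) and Vaultrc5 (1.93) were called higher and Rny3 (-1.88) and Rn7s1 (-1.53) lower, where 22.8% of features were called higher and 20.1% lower, while Rmrp (0.68) and Rn7sk (0.57) were not called. With RLE scaling the values for Rny3 and Rn7s1 were -0.80 and -0.42, and Rmrp (1.64) and Rn7sk (1.72) had adjusted p-values under 0.05.

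Within liver, Rny1 was higher on the LP diet and on the high-fat control diet than on the control diet. The control libraries held 8.65, 10.4, 26.7 and 143 RPM of Rny1, from 3 to 11 reads each. The LP libraries held 120, 203, 248, 280 and 386 RPM, from 7 to 99 reads. The C_HF libraries held 222, 271, 319 and 533 RPM, from 2 to 8 reads, and the HF libraries 0, 58.3, 102 and 255 RPM. All C_HF values lay above all control values, and 1 control library lay within the LP range. Rny1 was higher by 3.13 ± 0.74 (SE) in LP (edgeR adjusted p = 0.0025), where 73 of 205 features were called (35.6%) and 9.76% were called higher. It was higher by 2.81 ± 0.81 (SE) in C_HF (edgeR adjusted p = 0.0139), where 25.9% of features were called and 5.85% called higher. Without control replicate 1, the library at 143 RPM, these values were 4.12 and 3.76, and without control replicate 2 the C_HF difference lost its call (2.48, edgeR adjusted p = 0.0518). LP and C_HF did not differ by call (log2 0.32, edgeR adjusted p = 0.987, a contrast added after the data were seen, in which edgeR called 0 of 205 features, or 0.0%, with 12 at an unadjusted p under 0.05, and DESeq2 was not run), and neither did HF and C_HF (0.16, edgeR adjusted p = 0.903, with 2.93% of features called). That last difference has the opposite sign in RPM and with total counts (-1.28).

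In the same liver comparison of LP with control, Vaultrc5 was called higher (log2 2.47). Rny3 (1.66, edgeR adjusted p = 0.107), Rn7sk (1.398), Rmrp (0.99), Rn7s1 (0.51), Gm25018 (0.32) and the selenocysteine tRNA (0.01) were not. Of 70 cytosolic tRNA features tested, 52 were called lower and none higher. Relative to Rny1, Rny3 fell from 145 reads per 100 Rny1 reads in control to 53.1 in LP and 50 in C_HF. These ratios did not pass exact permutation tests, chosen after the values were seen (log2 -1.53, exact p = 0.0635, and -2.17, exact p = 0.114, both adjusted to 0.152 over 4 tests). The liver control libraries carry the numbers 1 to 4 in the column names and the other liver libraries 44 to 56, and mitochondrial tRNAs held a mean of 26.5% of reads in control, 65.5% in LP, 45.4% in C_HF and 41.03% in HF. The part of these differences in the Rny1 values was not tested.

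In heart the same 2 comparisons were called. The control libraries held 21.8, 24.5, 28.5, 35.4 and 51.6 RPM of Rny1, and the C_HF libraries 87.3, 88.3, 88.5, 110 and 116 RPM. The LP libraries held 0, 69.2, 79.2, 185 and 186 RPM, and the HF libraries 39.8, 94.6, 129 and 347 RPM. All C_HF libraries and 4 of 5 LP libraries lay above all control libraries. The differences from control were 1.69 ± 0.45 (SE) in LP (edgeR adjusted p = 0.00036) and 1.68 ± 0.45 (SE) in C_HF (edgeR adjusted p = 0.00058) on the log2 scale. In LP 182 of 242 features were called (75.2%), 33.5% of features higher, and in C_HF 57.4% were called, 29.3% higher, so a call for a single RNA is common in these contrasts. Both calls were lost when all table entries were kept (log2 0.89 and 0.88, edgeR adjusted p = 0.104 and 0.120). Leaving out single libraries moved the LP value between 1.36 (without LP replicate 5) and 2.63 (without control replicate 1), and the C_HF value between 1.202 (without HF replicate 3) and 2.22 (without control replicate 1). LP and C_HF differed by 0.01 (edgeR adjusted p = 0.987, with 41.7% of features called) and HF and C_HF by 0.56 (edgeR adjusted p = 0.822, with 1.24% called).

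The other polymerase III RNAs named here were also called higher in heart, whereas most cytosolic tRNAs, likewise made by polymerase III, were not. In LP against control the log2 differences were 5.12 for Rn7s1, 4.65 for Rmrp, 3.98 for Vaultrc5, 3.83 for Gm25018, 3.82 for Rn7sk, 2.28 for Rny3 and 1.60 for the selenocysteine tRNA. In C_HF they were 3.41 for the selenocysteine tRNA, 2.81 for Rn7sk, 2.64 for Vaultrc5, 2.60 for Rn7s1, 2.29 for Rmrp, 1.97 for Gm25018 and 1.76 for Rny3. In LP, 77 of 98 cytosolic tRNA features were called lower and 6 higher, and in C_HF 49 were called lower and 8 higher. The heart control libraries were the deepest (median 1101120 reads, against 176730 in LP, 350103 in C_HF and 560031 in HF) and are numbered 5 to 9 in the column names, the LP libraries 35 to 39, and the others carry no number. The part of these differences in the values was not tested.

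**Figure D5:**
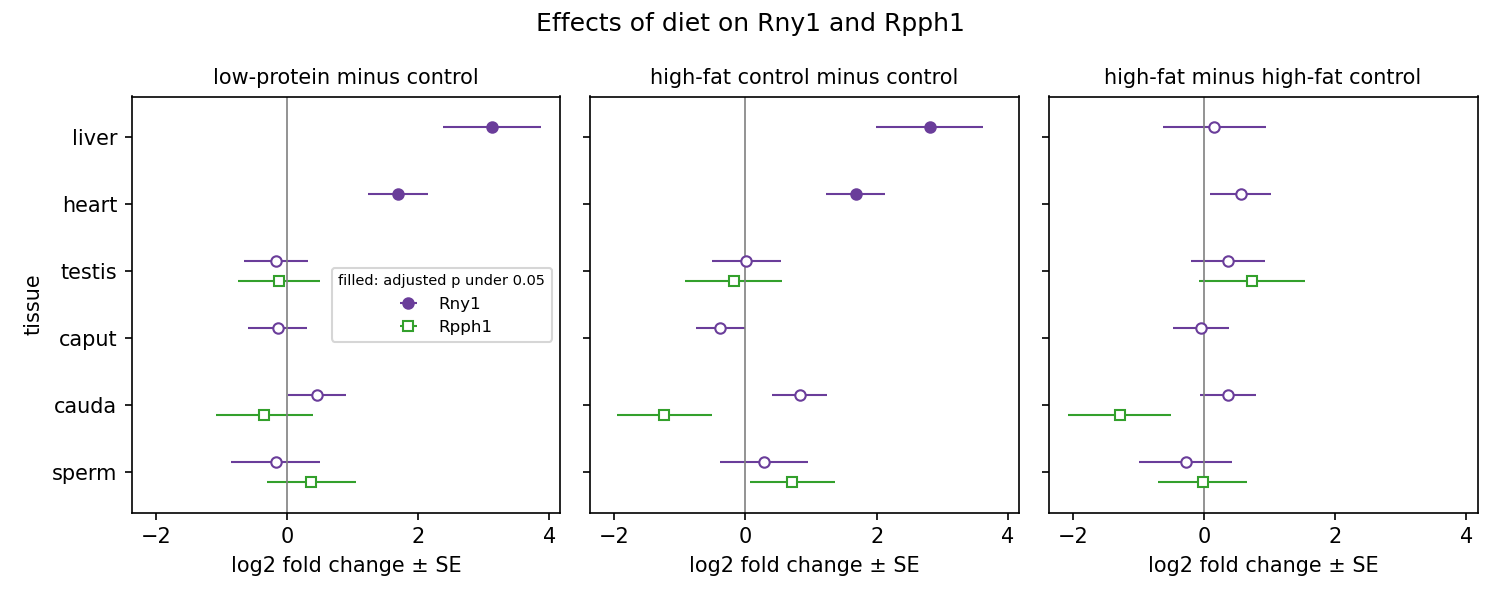
Log2 fold change with SE of Rny1 (circles) and Rpph1 (squares) for 3 diet contrasts in each tissue, with filled symbols at an edgeR adjusted p under 0.05. Only Rny1 in liver and heart is filled, at 3.13 and 1.69 for LP and 2.81 and 1.68 for C_HF, and Rpph1 had too few reads to be tested in liver, heart and caput.

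Rpph1 was tested for diet only in testis, cauda and sperm, since its reads were too few for the low-count filter elsewhere. In heart it had 3 reads in 5 control libraries, 5 in LP, 10 in C_HF and 19 in HF. With a minimum of 10 reads over the libraries instead, Rpph1 in heart was called higher in LP (log2 2.69, edgeR adjusted p = 0.0141) and in C_HF (2.80, edgeR adjusted p = 0.0039), where 33.3% and 27.7% of 466 features were called higher. It passes this minimum mainly through the other groups, since control held 3 of its 37 reads, and the LP reads came from 2 libraries, with 3 and 2 reads. The LP call was lost without LP replicate 4 (1.38, edgeR adjusted p = 0.348), LP replicate 5 (2.53, edgeR adjusted p = 0.0570) or control replicate 4 (2.20, edgeR adjusted p = 0.0566), and the C_HF call without C_HF replicate 1 (2.34, edgeR adjusted p = 0.0687). In liver it had 12, 15, 0 and 7 reads in C, LP, C_HF and HF, and the 0 among 52429 reads allows up to 57.2 RPM.

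In cauda epididymis no diet difference of either member was called. The control libraries held 234, 570, 803, 905 and 941 RPM of Rny1 and the LP libraries 607, 796, 1033 and 1384. The C_HF libraries held 1150, 1389, 1559, 1638 and 2420 RPM of Rny1 and the HF libraries 552, 2069, 3449 and 3707. All C_HF values lay above all control values, and 3 of 4 HF values did. Rpph1 held 169, 181, 281, 769 and 1070 RPM in control, 457, 530, 563 and 564 in LP, 177, 207, 264, 575 and 728 in C_HF, and 9.55, 171, 192 and 456 in HF, so its groups overlapped. The library at 9.55 RPM, HF replicate 4, was the deepest in cauda (628483 reads). It had 26.3% of reads in mitochondrial tRNAs and 0.0786% in piRNA precursors, against at most 12.7% and at least 0.288% in the other cauda libraries. The log2 differences of C_HF from control were 0.83 ± 0.42 (SE; edgeR adjusted p = 0.422) for Rny1 and -1.24 ± 0.72 (SE; edgeR adjusted p = 0.565) for Rpph1. Those of HF from C_HF were 0.37 ± 0.43 (SE; edgeR adjusted p = 0.907) and -1.28 ± 0.78 (SE; edgeR adjusted p = 0.675). Those of LP from control were 0.46 and -0.34. With edgeR, 0 of 218 features were called in each of these cauda contrasts, with 45 (LP against control), 21 (C_HF against control) and 18 (HF against C_HF) at an unadjusted p under 0.05. DESeq2 called 16, 3 and 0.

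Within cauda libraries, the pooled ratio of the members was lower on C_HF and HF. There were 67.0 Rpph1 reads per 100 Rny1 reads in control, 48.9 in LP, 17.3 in C_HF and 5.63 in HF. Of the 136 control reads of Rpph1, replicates 1 and 2 held 64 and 31, beside 14 and 23 Rny1 reads. The control log2 ratio was -0.71 ± 1.93 (SD, n = 5). Its median was -1.72, against -2.89 in C_HF and -4.27 in HF. The log2 ratio was -2.22 ± 1.18 (SD, n = 5) in C_HF and -4.11 ± 1.47 (SD, n = 4) in HF. The difference of -1.89 did not pass an exact permutation test (p = 0.0635, adjusted over 12 diet pairs 0.381, smallest possible 0.0159). C_HF and control differed by -1.51 (exact permutation p = 0.175, a contrast added after the data were seen). In sperm, which is collected from the cauda, the pooled ratios were 46.2, 56.5, 64.2 and 94.7 in the same order of diets, and no diet difference of the ratio passed (log2 0.02 for LP minus control and 0.20 for HF minus C_HF). None of the 12 diet pairs passed after adjustment. In caput the log2 ratio was 4.26 higher in LP than in control, with the smallest exact permutation p that 4 against 5 libraries allow (0.0159, adjusted to 0.190), and this rests on the 4 LP reads of Rpph1.

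In testis, caput and sperm, 0 of 15 diet tests of the members were called (9 of Rny1 and 6 of Rpph1). The log2 differences lay between -0.38 and 0.73, the smallest unadjusted edgeR p was 0.277, and DESeq2 called none. These tissues differ in how many features were called: for C_HF against control 46.8% in testis, 23.4% in caput and 0 of 180 in sperm (21 at an unadjusted p under 0.05, and 16 called by DESeq2). For LP against control 41.4% were called in caput, 0 of 447 in testis (39 at an unadjusted p under 0.05, none by DESeq2) and 0 of 180 in sperm (none by either measure). For HF against C_HF 0.69% were called in caput, 0 of 447 in testis (19 at an unadjusted p under 0.05, 2 by DESeq2) and 0 of 180 in sperm (6, and none by DESeq2). Leaving out caput control replicate 4, C_HF replicate 4 or HF replicate 1 each gave 1 call, of Rny1 for C_HF against control in caput.

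Whether the effect of LP differed among the 6 tissues was tested with the 5 interaction terms together, over 410 features of which 147 were called (35.9%). Both members were called, Rny1 with an edgeR adjusted p = 0.0250 and Rpph1 with an edgeR adjusted p = 0.0393. Without liver and heart, neither was (edgeR adjusted p = 0.963 and 0.165), and without the libraries under 5000 reads Rpph1 was not (edgeR adjusted p = 0.0579). For HF against C_HF, where 3.17% of 379 features were called, neither member was (edgeR adjusted p = 1.00 and 0.666).

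Across libraries, the members moved together in sperm, and no relation was called in cauda. Only these tissues had a median of at least 5 reads of both per library (in testis the median was 3 for Rpph1). Over 19 sperm libraries, log2 RPM of Rny1 and Rpph1 had r = 0.58 (permutation p = 0.0072, adjusted over the 2 tissues 0.0144) and rho = 0.54 (permutation p = 0.0201, adjusted 0.0402). Without the 2 libraries farthest from the median of Rny1, r was 0.50. Over 18 cauda libraries r was -0.12 (permutation p = 0.631) and rho -0.36 (permutation p = 0.138), and without 2 libraries r was 0.13. Both members are divided by the same depth in each library, and each diet holds too few libraries for a value within it. The difference between these tissues was not tested.

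Over the means of the 24 groups, the features most like each member were ranked by Spearman's rho among 293 others. For Rny1 these were the snRNAs Gm23238 (0.86), Gm24497 (0.85), Gm24924 (0.85) and Gm24305 (0.84) and the snoRNA Snord17 (0.85). For Rpph1 they were Gm24447 (annotated as miscellaneous RNA, 0.92), the snoRNAs Gm26205 (0.92) and Gm22748 (0.88), the miRNA entry Gm24245 (0.91) and the minor spliceosomal RNA Rnu11 (0.87). Rmrp ranked 15 for Rpph1 (0.84), and Rn7sk ranked 14 for Rny1 (0.72). The other Y RNA, Rny3, ranked only 71 for Rny1 (0.49), and the members ranked 69 and 107 for each other (0.50).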

How the data were processed

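The deposited table holds whole-number read counts of 1268 entries in 111 libraries. The submitters' processing notes name cutadapt, DESeq2 and mm10. How reads were aligned and counted, multiply mapped ones included, the sources used here do not state. Entries listing the same reads within 5% were merged (55 further 5S entries, 22 second names of mitochondrial tRNAs and 149 others), leaving 1042 features with 51.1% of the summed counts. Depth over these was 827 to 1467880 reads, which limits low values. Groups came from the sample titles. Fits used edgeR 4.0.16 in R 4.3.3 (TMM, low-count filter, robust quasi-likelihood) on all features, with Benjamini-Hochberg adjustment over all features in each contrast. Alternatives were DESeq2 1.42.0, RLE and total-count scaling, other filters, unmerged entries, the C and C_HF libraries alone, and single libraries left out. Ratios were tested by 2-sided permutation (100000 resamples between tissues, exact between diets; scipy 1.17.1). The fits and permutation test were tested on simulated data. The members, the named genes (both members and the RNA polymerase III lists, plus the 5 features most like each member) and all lists were chosen with earlier results of these data known. Sequences and positions are from GENCODE M21.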

Additional observations from a re-analysis of the deposited data

Results flagged for a closer look

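Of 44 groups of 4 or 5 libraries tested for a library far from the others, 5 had one. Chance is taken to flag about 1 in 20 such groups, a rate that was not checked for groups with few reads. Rny1 stood apart in 1 liver control library (143 RPM), 1 testis control library (424 RPM) and 1 caput HF library (714 RPM). Rpph1 stood apart in 1 liver HF library (77.8 RPM, 4 reads) and 1 heart LP library (27.9 RPM, 3 reads). The effect of LP against control was called as differing among the 6 tissues for Rny1 (edgeR adjusted p = 0.0250) and Rpph1 (edgeR adjusted p = 0.0393). The same test called 35.9% of features, and without liver and heart neither member was called (edgeR adjusted p = 0.963 and 0.165).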

How the results depend on the processing

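Depth limits Rpph1 most, since liver, heart and caput held 34, 37 and 4 of its reads. The calls of both RNAs in cauda and sperm against testis, of Rpph1 in cauda and sperm against liver, heart and caput, and of Rny1 in cauda against liver and heart kept their direction and call in all settings run. For the values below, the cause was not tested. With total counts as the scaling, Rny1 gave log2 -0.94 for heart minus liver, 0.34 for testis minus liver, 1.28 for testis minus heart and -1.28 for HF minus C_HF in liver, and Rpph1 gave 0.63 for caput minus heart, 0.0925 for sperm minus cauda and 0.0852 for LP minus control in cauda. With RLE factors, Rny1 gave -0.24 for heart minus liver, 0.13 for testis minus heart and 0.41 for sperm minus cauda, and Rpph1 gave 0.96 for sperm minus cauda. With DESeq2, Rny1 gave -1.59 for testis minus liver (called), and Rpph1 gave -0.0345 for testis minus liver and -0.85 for caput minus testis. In the C and C_HF libraries alone, Rny1 gave 1.15 for heart minus liver and 1.05 for caput minus heart (both called). Rpph1 gave -3.29 there for caput minus heart (called). With all entries kept, Rny1 gave 0.81 for cauda minus caput, -0.22 for sperm minus caput, -1.03 for sperm minus cauda (called), -0.24 for HF minus C_HF in liver, -0.0107 for LP minus control in cauda, and 0.89 and 0.88 for LP and C_HF minus control in heart. Levels in sperm counted over all entries were 149 RPM for Rny1 and 83.2 RPM for Rpph1, and TMM-scaled levels in heart 328 and 16.99 RPM.

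The interaction of LP with tissue was lost for Rny1 with total counts (F = 2.74) and without liver and heart (F = 0.24), and for Rpph1 with DESeq2 (likelihood ratio 13.4), without libraries under 5000 reads (F = 2.75) and without liver and heart (F = 3.86). The ratio of Rpph1 to Rny1 changed sign with 1 read added for caput minus heart (0.10), cauda minus testis (-0.16) and HF minus C_HF in liver (-0.41), and with at least 5 reads of both for cauda minus testis (-0.048). In such libraries the ratio of Rny3 to Rny1 changed sign for testis minus liver (-0.10), caput minus liver (-0.12) and caput minus testis (-0.0232). The cauda correlation was 0.0141 with TMM-scaled values.

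Leaving out single libraries gave Rny1 differences of 2.82 to 4.12 (LP minus control, liver, called in 17 of 17), 2.48 to 3.76 (C_HF minus control, liver, called in 16 of 17), 1.36 to 2.63 and 1.202 to 2.22 (the same in heart, called in 19 of 19 each), and 0 to 1 calls in testis, caput and sperm. Uncalled differences changed sign: HF minus C_HF for Rny1, -0.58 to 0.44 in liver and -0.21 to 0.97 in heart, and LP minus control for Rpph1 in cauda, -0.58 to 0.42. So did ratios of Rpph1 to Rny1: HF minus C_HF, -1.42 to 1.53 in liver, -0.19 to 0.91 in heart, -0.13 to 0.80 in testis and -0.11 to 0.39 in sperm, and LP minus control, -0.47 to 0.64 in cauda, -0.36 to 0.41 in sperm and -0.27 to 0.0925 in testis.

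Whether the replicate numbers of the titles pair the libraries was not tested. Same-numbered libraries of different diets in a tissue had a median correlation of 0.0486, against -0.0144 for others. Of these pairs 62 of 157 (39.5%) and 179 of 612 (29.2%) lay above 0.1. Same-numbered libraries of different tissues on a diet had 0.00123 (76 of 270 above 0.1) against 0.00558 (296 of 1020). The library names carry another number in 11 libraries, and by those numbers the medians were 0.0241 (57 of 153 above 0.1) and 0.0122 (77 of 270). With the replicate block, Rny1 in caput minus liver lost its call (1.03, edgeR adjusted p = 0.0754), and sperm minus cauda for Rpph1 (0.0406), HF minus C_HF for Rny1 in liver (-0.0574) and LP minus control for Rpph1 in cauda (0.0382) changed sign without being called. With the numbers of the library names as the block, added after the data were seen, the same results moved to 0.98 (edgeR adjusted p = 0.0996), 0.13, -0.46 and 0.71.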
